A study of Mus musculus with 9 samples.

Results

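A set of 9 genes of apolipoproteins and cholesterol efflux was followed in the epididymal adipose tissue of obese mice during weight loss. The genes were named by their role in cholesterol handling, by a rule that uses no measured value, though with earlier results of these data known: *Apoe*, *Apoc1* and *Apod* (apolipoproteins), *Abca1* and *Abcg1* (sterol exporters), *Pltp* (phospholipid transfer), *Scarb1* (high-density lipoprotein receptor), *Soat1* (cholesterol esterification) and *Ch25h* (oxysterol synthesis). They are 9 of the 56748 genes in the deposited table, and all 9 were among the 18510 genes with enough reads to be tested. Male C57BL/6J wild-type mice, 8 weeks old at the start, were fed a high-fat diet (HFD) for 8 weeks (Pre), or HFD for 8 weeks followed by a standard diet (SD) for 1 week (WL1) or 2 weeks (WL2). All groups had therefore received HFD, and no group of lean mice or of mice kept on HFD for the extra weeks was analysed here. RNA of whole tissue was sequenced, with 3 libraries per phase. Nothing in the labels ties each library to 1 mouse, so the p-values measure the spread between these libraries.

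Cells cannot break down the sterol ring, so surplus cholesterol is either stored as an ester or handed to lipoproteins outside the cell. ABCA1 and ABCG1 are ATP-driven transporters in the membrane that load cholesterol and phospholipid onto apolipoproteins and high-density lipoprotein, and both genes are known targets of the nuclear receptors LXR, which oxysterols activate. In adipose tissue, which holds a large pool of free cholesterol in its fat droplets, both adipocytes and macrophages make apolipoprotein E, and macrophages that take up lipid from dying adipocytes are known for their lysosomal and cholesterol-handling genes.

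Across the phases the 9 genes did not move together. *Apoe* was 2.12-fold higher at WL2 than at Pre, while *Apoc1*, its neighbour on chromosome 7, was 2.51-fold lower. *Abcg1* and *Pltp* rose at WL1 by 2.35-fold and 2.07-fold, and the *Pltp* rise held in only 2 of the 9 fits that left out 1 library. Their WL2 means lay closer to Pre, but the differences between WL2 and WL1 were not called. All WL2 libraries of *Abcg1* stayed above Pre. *Abca1* had phase means between 224 and 240 CPM, and its fitted difference from Pre was 0.06 on the log2 scale at WL1 and -0.04 at WL2. The libraries held between 16434450 and 22729072 counted reads, and each member other than *Ch25h* (8 to 31 reads per library) had at least 132 reads in each. CPM are counted reads scaled to a common library size after TMM scaling, which corrects library totals for differences in composition. Changes are log2 fold changes of edgeR's quasi-likelihood test. The test gives no standard error (SE), so SE was taken as the size of the log2 fold change divided by the square root of the test's F statistic. The 95% intervals were built from that SE. A gene was called when its Benjamini-Hochberg adjusted p over all 18510 genes was under 0.05.

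The sequences just before the transcription start of 4 members are printed so that the start region of *Abca1*, whose level was alike at all phases, can be read beside those of *Apoe* and *Pltp*, which were called, and of *Soat1*, which had the largest fitted change of the set at WL1. The RefSeq promoter table (build GRCm38.p6) held 6 of the 9 members, without *Apoc1*, *Abcg1* and *Scarb1*. Each run holds the 250 bases before the start, 5′ to 3′ on the strand of the gene, which is the minus strand for all 4. *Abca1* is at chr4:53159896-53160145, *Pltp* at chr2:164857709-164857958, *Apoe* at chr7:19699189-19699438 and *Soat1* at chr1:156474329-156474578. Capitals mark 3 motifs, each searched on both strands. The TATA box was searched as TATAAA, where the general transcription machinery can dock. The GC box was searched as GGGCGG, which Sp1 is known to bind. DR4, the form of repeat known to bind LXR with its partner RXR, was searched as 2 copies of AGGTCA separated by 4 bases, with at most 3 mismatches.
Abca1: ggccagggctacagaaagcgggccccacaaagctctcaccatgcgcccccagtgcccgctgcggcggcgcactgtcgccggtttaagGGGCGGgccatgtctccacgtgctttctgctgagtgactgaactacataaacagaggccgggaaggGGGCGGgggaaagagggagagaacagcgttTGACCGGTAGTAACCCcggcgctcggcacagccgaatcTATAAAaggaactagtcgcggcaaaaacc
Pltp: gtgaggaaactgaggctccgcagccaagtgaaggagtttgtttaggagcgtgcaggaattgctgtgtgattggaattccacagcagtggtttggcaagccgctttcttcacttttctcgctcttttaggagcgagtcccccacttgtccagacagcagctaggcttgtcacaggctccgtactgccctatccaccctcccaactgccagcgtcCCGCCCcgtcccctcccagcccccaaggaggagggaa
Apoe: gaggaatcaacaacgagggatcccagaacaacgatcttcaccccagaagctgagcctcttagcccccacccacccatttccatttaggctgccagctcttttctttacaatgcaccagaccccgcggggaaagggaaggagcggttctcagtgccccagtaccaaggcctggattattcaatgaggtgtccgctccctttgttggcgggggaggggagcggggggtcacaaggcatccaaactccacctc
Soat1: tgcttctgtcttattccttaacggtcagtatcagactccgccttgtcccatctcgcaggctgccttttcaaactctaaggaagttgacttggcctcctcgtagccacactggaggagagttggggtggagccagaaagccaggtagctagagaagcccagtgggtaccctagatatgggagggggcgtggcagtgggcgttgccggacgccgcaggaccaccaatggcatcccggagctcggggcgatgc
In the *Abca1* run the DR4 match begins 67 bases before the start, on the other strand and at the full limit of 3 mismatches. The TATA box begins 29 bases before the start, and 2 GC boxes 163 and 97 bases before it. The *Pltp* run holds a GC box on the other strand 37 bases before the start, and the *Apoe* and *Soat1* runs hold none of the 3 motifs. *Ch25h* had a TATA box 151 bases before its start and *Apod* had none of the motifs. Over 32851 promoters of the same length, 12.4% held the TATA box, 32.7% the GC box and 18.5% held DR4 at this mismatch limit, which was chosen after the promoters were read. No motif match overlapped another in these runs. A match is a run of letters and not a measured site, and sequence outside the 250 bases was not searched.

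**Figure D1:**
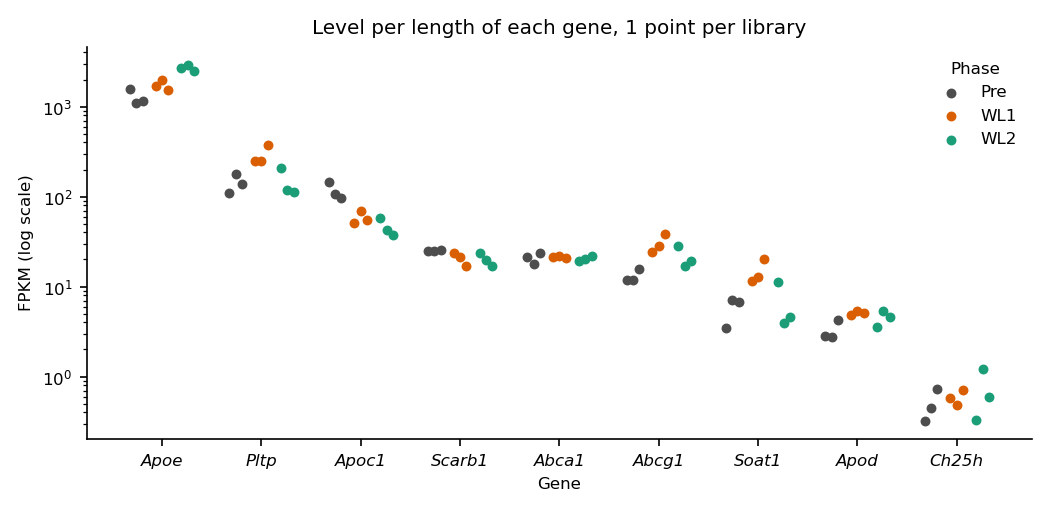
FPKM (fragments scaled by gene length and library size, authors' values, log axis) of the 9 genes, 1 point per library, coloured by phase (Pre grey, WL1 orange, WL2 green). *Apoe* lies above all others in every library, from 1101 to 2914 FPKM, and *Ch25h* lies lowest, from 0.319 to 1.20 FPKM.

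Levels of different genes were compared per length, in the FPKM of the authors. *Apoe* had the highest level of the set at every phase, 1270 ± 248 FPKM at Pre, 1719 ± 217 at WL1 and 2690 ± 220 at WL2 (mean ± SD, n = 3 here and throughout). It took 0.237% to 0.331% of all reads at Pre, 0.349% to 0.455% at WL1 and 0.587% to 0.700% at WL2, and its rank among protein-coding genes by FPKM went from between 21 and 26 to between 7 and 10. *Pltp* came next, with 143 ± 34.9, 292 ± 72.5 and 148 ± 54.2 FPKM. *Apoc1* followed with 116 ± 25.9 FPKM at Pre, where its libraries overlapped those of *Pltp*, and 58.7 ± 9.83 and 46.2 ± 11.0 FPKM at WL1 and WL2, where they did not. *Scarb1* (25.2 ± 0.432 FPKM) and *Abca1* (20.9 ± 2.88 FPKM) lay above *Abcg1* (13.2 ± 2.35 FPKM) at Pre without overlap. At WL1 this order had changed: *Abcg1* (30.4 ± 7.42 FPKM) lay above *Abca1* (21.5 ± 0.562 FPKM) in all 3 libraries, and at WL2 the libraries of *Abcg1*, *Abca1* and *Scarb1* overlapped around means of 21.5, 20.3 and 20.1 FPKM. *Soat1* went from 5.80 ± 2.03 to 14.7 ± 4.70 and 6.55 ± 3.96 FPKM, and its libraries overlapped those of *Apod* at Pre and WL2 and those of *Scarb1* at WL1. *Apod* (3.27 to 5.12 FPKM in the phase means) and *Ch25h* (0.495 to 0.706 FPKM) were the lowest.

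**Figure D2:**
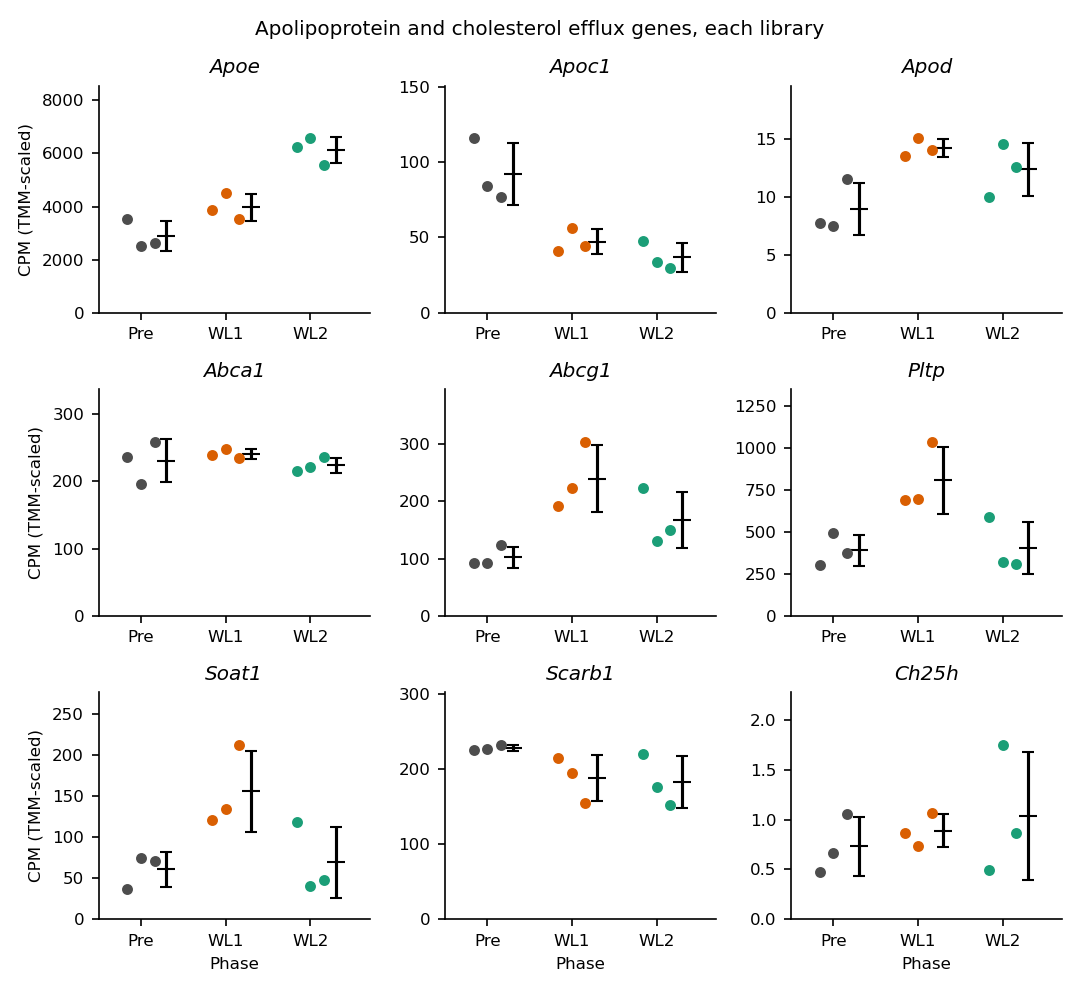
TMM-scaled CPM of each of the 9 genes (1 panel per gene, linear axis from 0) at Pre, WL1 and WL2. Points are the 3 libraries in replicate order and the bars are mean ± SD. *Apoe* climbs from 2892 to 6131 CPM in the means, *Apoc1* falls from 92.2 to 36.7 CPM, and *Soat1* and *Pltp* peak at WL1 with WL2 replicate 1 above the other 2 WL2 libraries.

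At WL1 against Pre, 3 of the 9 genes were called, *Abcg1* and *Pltp* higher and *Apoc1* lower. Among all genes tested 7.29% were called, 2.60% higher and 4.69% lower. Their median log2 fold change was 0.46, beside 0.02 over all genes. In 6 of the 9 the libraries of WL1 and Pre did not overlap, against 28.7% of all genes. At WL2 against Pre, 2 were called, *Apoe* higher and *Apoc1* lower, against 10.0% of all genes (3.35% higher and 6.66% lower), with a median of 0.19 against 0.01, and 4 of 9 without overlap against 30.9%. At WL2 against WL1, 0 of the 9 were called by edgeR, against 3.68% of all genes, with 4 at an unadjusted p under 0.05, 2 called by DESeq2 (*Apoe* and *Pltp*) and 0 by limma. Over all 18510 genes edgeR called 681 and DESeq2 1935. For limma the count was 582 on log2(FPKM + 1) and 231 on log2(FPKM + 0.1). Libraries did not overlap in 3 of 9, against 30.3%. WL1 set against the mean of Pre and WL2 is named the peak comparison here. A step at WL1 that persists at WL2 can also pass it, so a call does not by itself show a peak or a trough. In it 2 members were called, *Abcg1* and *Pltp*, both higher. Of all genes, 4.58% were called in that comparison, 2.81% were called higher, and in 9.23% the WL1 libraries lay apart from all 6 others, as they did in 2 of the 9 members, *Pltp* and *Soat1*. The share of reads from mitochondrial genes also differed without overlap, at 3.15% to 3.57% at Pre, 1.86% to 2.03% at WL1 and 2.28% to 2.88% at WL2, and its part in the members' changes was not tested. Each count of called members rests on 0 to 3 genes, so the results are given gene by gene. The comparisons share libraries, and their calls are not independent of each other.

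**Figure D3:**
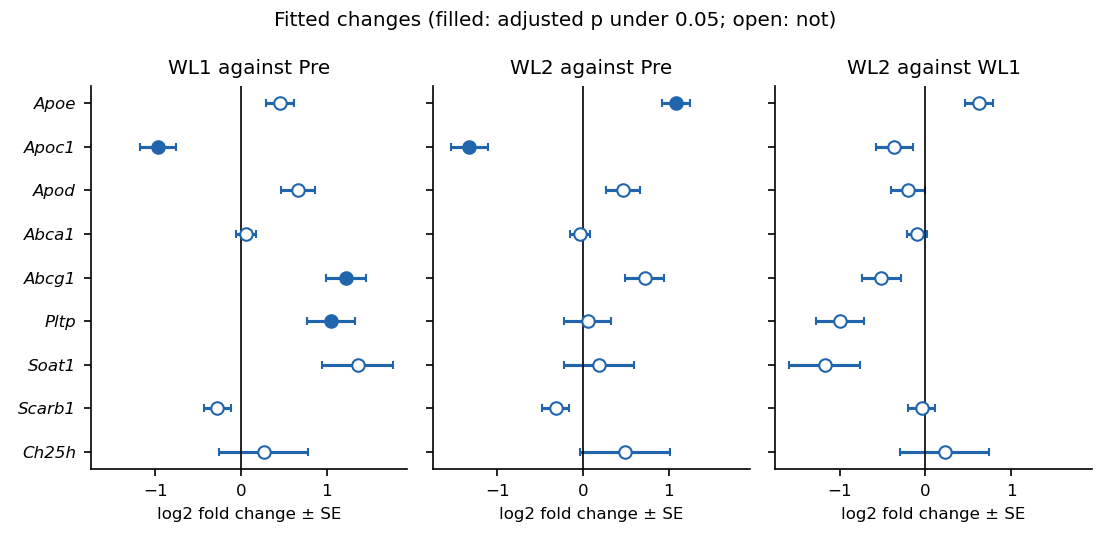
Log2 fold change ± SE of each gene in 3 comparisons, from edgeR over 9 libraries. Filled points passed an adjusted p of 0.05: *Apoc1*, *Abcg1* and *Pltp* at WL1 against Pre, *Apoe* and *Apoc1* at WL2 against Pre, and none at WL2 against WL1.

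Among the apolipoproteins, *Apoe* (ENSMUSG00000002985, chromosome 7, 19430034 to 19433113 on the minus strand, in the authors' table, which names no build) encodes the ligand that several lipoprotein receptors recognise. It measured 3547, 2502 and 2626 CPM in the 3 Pre libraries, 3866, 4526 and 3512 CPM at WL1, and 6239, 6571 and 5582 CPM at WL2. All 3 WL2 libraries lay above all 6 others, while WL1 replicate 3 fell just below Pre replicate 1. The change was 1.08 ± 0.16 (log2 ± SE) at WL2 against Pre with an adjusted p of 0.00236, and it stayed called without any 1 of the 9 libraries, between 0.99 and 1.26. At WL1 against Pre it was 0.46 ± 0.16 with an adjusted p of 0.115, and at WL2 against WL1 0.63 ± 0.16 with an adjusted p of 0.0581. The WL2 against WL1 difference passed the threshold with DESeq2 (adjusted p 0.00221), no filter (0.0277), upper-quartile factors (0.0462), library totals alone (0.0439) or only the phases compared (0.0368), and without Pre replicate 1 (0.0363) or Pre replicate 2 (0.0447).

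*Apoc1* (ENSMUSG00000040564, chromosome 7, 19423406 to 19426585, minus strand) encodes a small apolipoprotein that hinders lipoprotein uptake and lipoprotein lipase, and it lies 3448 bases from *Apoe* on the same strand. Its values were 115.8, 83.8 and 77.1 CPM at Pre, 41.1, 56.4 and 44.0 CPM at WL1, and 47.4, 33.5 and 29.4 CPM at WL2. Every library of WL1 and of WL2 lay below every library of Pre, and WL1 and WL2 overlapped. The fall was -1.33 ± 0.21 at WL2 with an adjusted p of 0.00356, called without any 1 library (-1.55 to -1.13). At WL1 it was -0.97 ± 0.21 with an adjusted p of 0.0239, and it missed the threshold without Pre replicate 1 (-0.77), WL1 replicate 1 (-0.88) or WL1 replicate 3 (-0.93), and with limma on log2(FPKM + 0.1) (adjusted p 0.0532). At WL2 against WL1 the difference was -0.36 ± 0.21 with an adjusted p of 0.37.

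As these neighbours changed in opposite directions, their ratio was taken within each library, a description chosen after the values were seen. *Apoe* FPKM were 10.7, 10.4 and 11.9 times *Apoc1* FPKM at Pre. The ratio was 32.7, 27.9 and 27.8 at WL1 and 45.8, 68.3 and 66.1 at WL2. The 3 phases did not overlap in this ratio, and scaling of a whole library cancels in it.

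*Apod* (ENSMUSG00000022548, chromosome 16, 31115010 to 31133626) encodes a lipocalin that binds small lipids and is structurally unrelated to the other apolipoproteins. It was low, at 7.78, 7.54 and 11.6 CPM at Pre, 13.6, 15.1 and 14.1 CPM at WL1 and 10.0, 14.6 and 12.6 CPM at WL2. The WL1 libraries lay close together and all above Pre, and WL2 overlapped both. The difference was 0.67 ± 0.20 at WL1 against Pre with an adjusted p of 0.0708, and 0.46 ± 0.20 at WL2 against Pre with an adjusted p of 0.17. Without Pre replicate 3, the highest of its phase, the WL1 difference was 0.90 with an adjusted p of 0.0267, and DESeq2 gave an adjusted p of 0.0367. It was 0.57 (adjusted p 0.179) without Pre replicate 1 and 0.55 (0.15) without Pre replicate 2. With limma on log2(FPKM + 0.1) the adjusted p was 0.111.

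**Figure D4:**
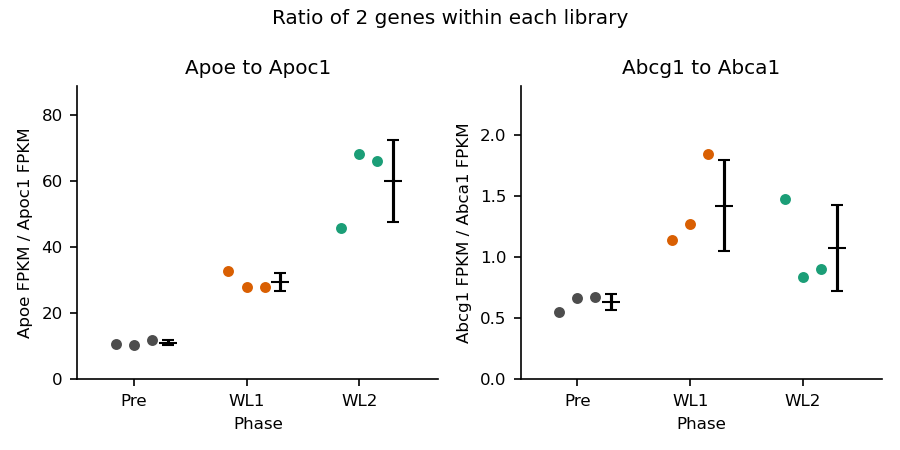
Ratio of FPKM within each library for *Apoe* to *Apoc1* (left) and *Abcg1* to *Abca1* (right) by phase, with points for the 3 libraries and bars for mean ± SD. The left ratio is between 10.4 and 11.9 at Pre and between 45.8 and 68.3 at WL2, and the right ratio is between 0.552 and 0.676 at Pre and between 1.14 and 1.85 at WL1.

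Of the exporters, *Abca1* (ENSMUSG00000015243, chromosome 4, 53030787 to 53159895, minus strand) encodes the transporter that lipidates lipid-poor apolipoproteins. It measured 236, 196 and 259 CPM at Pre, 239, 248 and 234 CPM at WL1, and 215, 220 and 236 CPM at WL2. All phases overlapped. The difference was 0.06 ± 0.12 at WL1 against Pre, with a 95% interval from -0.20 to 0.32 (adjusted p 0.787), and -0.04 ± 0.12 at WL2 against Pre, with an interval from -0.30 to 0.22 (adjusted p 0.854). A 2-fold difference in either direction lies outside both intervals.

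*Abcg1* (ENSMUSG00000024030, chromosome 17, 31276649 to 31336962, plus strand) encodes the transporter that passes sterol to lipid-bearing lipoproteins. It measured 91.7, 91.7 and 123 CPM at Pre, 192, 223 and 305 CPM at WL1 and 224, 130 and 150 CPM at WL2. Both weight loss phases lay above Pre in every library, and WL2 replicate 1 reached the level of WL1. The rise at WL1 was 1.23 ± 0.23 with an adjusted p of 0.0133, and missed the threshold only without Pre replicate 1 (1.16, adjusted p 0.0547). At WL2 against Pre the difference was 0.72 ± 0.23 with an adjusted p of 0.0779, which DESeq2 put at 0.0235, and at WL2 against WL1 it was -0.51 ± 0.23 with an adjusted p of 0.228. WL1 was above the mean of the other phases by 0.87 ± 0.19 (adjusted p 0.0364), a call lost in 6 of the 9 fits that left out 1 library, over a range from 0.65 to 1.01, and with the block (adjusted p 0.0647). Within libraries, *Abcg1* FPKM were 0.552, 0.664 and 0.676 times *Abca1* FPKM at Pre, 1.14, 1.28 and 1.85 times at WL1, and 1.48, 0.841 and 0.899 times at WL2, again a description chosen after the values were seen. The WL1 and WL2 ratios all exceeded those of Pre.

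*Pltp* (ENSMUSG00000017754, chromosome 2, 164681438 to 164699631, minus strand) encodes the protein that moves phospholipid between lipoproteins and remodels high-density lipoprotein. Its libraries held 303, 491 and 375 CPM at Pre, 692, 693 and 1038 CPM at WL1, and 586, 321 and 308 CPM at WL2. All WL1 libraries lay above the 6 others. The rise at WL1 against Pre was 1.05 ± 0.28 with an adjusted p of 0.0474, close to the threshold, and it held in only 2 of the 9 fits without 1 library, those without Pre replicate 2 or WL2 replicate 1, over a range from 0.82 to 1.25. It was also lost with the replicate number as a block (adjusted p 0.101) and with limma on the FPKM. WL2 differed from Pre by 0.06 ± 0.27 (adjusted p 0.917) and from WL1 by -0.996 ± 0.28 (adjusted p 0.0731), the latter -1.36 with an adjusted p of 0.013 without WL2 replicate 1. WL1 against the mean of the other phases gave 1.02 ± 0.23 (adjusted p 0.0385), kept in 2 of the 9 fits without 1 library (0.79 to 1.21) and lost with the block (adjusted p 0.0853). *Pltp* shares 1515 bases with *Ctsa*, a lysosomal gene on the opposite strand with 56655 reads in all, and since no strand setting is given, reads in the shared stretch cannot be assigned to either with certainty. *Ctsa* had 262 ± 43.0, 465 ± 130 and 282 ± 77.3 CPM at the 3 phases, and its WL1 difference of 0.83 ± 0.23 had an adjusted p of 0.0583.

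*Soat1* (ENSMUSG00000026600, chromosome 1, 156252095 to 156301901, minus strand) encodes the enzyme that esterifies cholesterol for storage in the cell. It had the largest fitted change of the set at WL1, with wide spread between libraries. Pre libraries held 36.2, 74.4 and 70.7 CPM, WL1 libraries 120, 134 and 212 CPM, and WL2 libraries 118, 40.5 and 47.8 CPM. All WL1 libraries exceeded the other 6, with WL2 replicate 1 only just below. The WL1 difference of 1.36 ± 0.41 had an adjusted p of 0.0745, and the WL2 difference from Pre was 0.19 ± 0.41 (adjusted p 0.805), or -0.45 without WL2 replicate 1. WL2 against WL1 gave -1.17 ± 0.41 with an adjusted p of 0.131. Without WL2 replicate 1 the same values were 1.36 at WL1 against Pre with an adjusted p of 0.0202, and -1.82 at WL2 against WL1 with an adjusted p of 0.0152. The WL1 difference from the mean of the other phases, 1.27 ± 0.34 with an adjusted p of 0.0612, was then 1.59 with an adjusted p of 0.00606. As WL2 replicate 1 is in neither Pre nor WL1, leaving it out kept the WL1 estimate at 1.36 and changed the shared spread. The WL1 difference from Pre also passed with no filter on low counts (adjusted p 0.00354) and with the 2 phases fitted alone (0.0433). It passed in no other alternative. Without Pre replicate 1 it was 1.10 (adjusted p 0.183), and without WL1 replicate 3 it was 1.07 (0.218). The adjusted p was 0.136 with the block and 0.127 with limma on log2(FPKM + 0.1).

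*Scarb1* (ENSMUSG00000037936, chromosome 5, 125354151 to 125418158, minus strand) encodes SR-BI, which takes cholesterol esters from high-density lipoprotein and also lets free cholesterol leave. Its Pre libraries were nearly alike at 226, 226 and 233 CPM, and WL1 (215, 195 and 155 CPM) and WL2 (221, 176 and 152 CPM) lay below them in every library. The differences of -0.28 ± 0.16 at WL1 (adjusted p 0.306) and -0.32 ± 0.16 at WL2 (adjusted p 0.226) did not pass the test, with 95% intervals from -0.62 to 0.07 and from -0.67 to 0.03.

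*Ch25h* (ENSMUSG00000050370, chromosome 19, 34451178 to 34452564, minus strand) encodes the enzyme that makes 25-hydroxycholesterol, an oxysterol. It had 0.472, 0.661 and 1.06 CPM at Pre, 0.868, 0.734 and 1.07 CPM at WL1, and 0.492, 1.76 and 0.868 CPM at WL2, and all phases overlapped. The 95% interval of its WL1 difference ran from -0.89 to 1.42, which is too wide to tell a rise from a fall. A gene of the opposite strand with 40 reads in all shares 357 bases with it.

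The genes with the profile most like each called member were found by the root mean square difference of centred log2 CPM over the 9 libraries, among 13055 protein-coding genes with a mean of at least 1 CPM. For *Apoe* these were *Ccdc17* (0.0961), *Zrsr1* (0.123) and *Cd46* (0.145). *Apoc1* was nearest to *Cmc2* (0.150), *Dbi* (0.155) and *Cd320* (0.161). *Abcg1* was nearest to *Ttll3* (0.140), *Fbxo32* (0.148) and *Gdpd1* (0.149), and *Pltp* to *Daglb* (0.107), *2310022A10Rik* (0.107) and *Uap1l1* (0.114). None of these is another member of the set.

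The wider cholesterol pathway was read from 6 lists of other genes. The lysosomal list, genes that free cholesterol from lipoproteins and esters and turn esters over, had 3 of 10 called higher and 0 lower at WL1 against Pre (median 0.37 on the log2 scale). *Lipa*, the lysosomal acid lipase, measured 177, 262 and 264 CPM at Pre, 536, 579 and 914 CPM at WL1 and 482, 205 and 194 CPM at WL2, a rise of 1.53 ± 0.35 at WL1 with an adjusted p of 0.0296. *Nceh1*, a hydrolase of cholesterol esters, measured 28.2, 51.6 and 58.3 CPM at Pre, 110, 129 and 204 CPM at WL1 and 101, 34.7 and 42.8 CPM at WL2, a rise of 1.68 ± 0.41 with an adjusted p of 0.0379. *Npc1*, which exports cholesterol from the lysosome, rose by 0.77 ± 0.20 with an adjusted p of 0.045. In all 3 genes every WL1 library exceeded every Pre library and WL2 replicate 1 lay above the other WL2 libraries. *Lipa* (1.24 to 1.67) and *Nceh1* (1.37 to 1.89) missed the threshold without any 1 of the 6 Pre and WL1 libraries, and *Npc1* (0.53 to 0.90) held only without WL1 replicate 2 or WL2 replicate 1. At WL2 against Pre, *Ces1d*, a carboxylesterase of adipocytes and liver, rose by 1.07 ± 0.21 (adjusted p 0.0113) and *Npc2*, which hands cholesterol to NPC1, fell by 0.65 on the log2 scale (adjusted p 0.03), with 8 of 10 not called and a median of 0.28. At WL2 against WL1, *Ces1d* rose by 1.60 ± 0.22, while *Npc2* fell by 0.79 and *Stard3* by 0.70. WL1 against the mean of the other phases had *Nceh1* (1.49), *Lipa* (1.37) and *Stard3* (0.64) higher and *Ces1d* lower (-1.06).

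Of 12 genes of LXR, its partners and other targets, 1 was called higher and 2 lower at WL1, and 1 higher and 3 lower at WL2 against Pre, with medians of -0.13 and -0.12. *Srebf1*, an LXR target that drives fatty acid synthesis, measured 352, 420 and 340 CPM at Pre, 206, 202 and 180 CPM at WL1 and 203, 190 and 210 CPM at WL2. It fell by 0.92 on the log2 scale at WL1 (adjusted p 0.00171) and by 0.88 at WL2 (adjusted p 0.00111), and held without any 1 library. *Rxra*, the partner receptor, fell by 0.52 (adjusted p 0.0257) and 0.61 (adjusted p 0.00905). *Ncor1*, a corepressor, rose by 0.52 (adjusted p 0.0353) and 0.62 (adjusted p 0.0132), and *Arl4c* fell by 0.98 at WL2 (adjusted p 0.0174). At WL2 against WL1, 0 of the 12 were called, with 2 at an unadjusted p under 0.05, and *Srebf1* alone was called in the WL1 peak comparison (-0.48). The WL1 and WL2 libraries of *Srebf1* overlapped, all below Pre, so that call does not show a trough at WL1.

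Lipoprotein receptors and their partners (13 of 15 tested) had 1 gene higher and 2 lower at WL1, and 0 higher and 3 lower at WL2 against Pre, with medians of -0.20 and -0.27. The sorting receptor *Sorl1* measured 27.5, 46.0 and 37.6 CPM at Pre, 18.7, 16.9 and 21.2 CPM at WL1 and 11.1, 11.5 and 13.1 CPM at WL2. It fell by 0.97 on the log2 scale at WL1 (adjusted p 0.013) and by 1.63 at WL2 (adjusted p 0.000498), and *Vldlr*, which binds apolipoprotein E, fell by 0.72 (adjusted p 0.0149) and 1.10 (adjusted p 0.000956). The WL2 falls of both held without any 1 library. *Msr1*, a macrophage scavenger receptor, rose by 1.56 at WL1 (adjusted p 0.0403), a call kept in 2 of the 9 fits without 1 library.

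Of the enzymes of oxysterols and sterol transfer proteins, 13 of 14 were tested, 0 were called at WL1 against Pre (1 at an unadjusted p under 0.05) and 2 were higher at WL2. These were *Cyp27a1*, the mitochondrial sterol 27-hydroxylase (0.60 ± 0.11, adjusted p 0.00823), and *Osbpl1a* (0.68 ± 0.15, adjusted p 0.0204). Both were higher at WL2 than at WL1 too, by 0.57 and 0.69, and 0 of the 13 were called in the WL1 peak comparison, with 5 at an unadjusted p under 0.05. Of 11 other ABCA and ABCG transporters tested, 0 were called at WL1 against Pre (2 at an unadjusted p under 0.05). At WL2 against Pre, *Abcg2*, an exporter of drugs and urate, was higher (0.58, adjusted p 0.0171), and *Abca7* (-0.59, adjusted p 0.0316) and *Abca3* (-0.45, adjusted p 0.0479) were lower. *Abcg3* was lower at WL2 than at WL1 (-1.16, adjusted p 0.0202) and higher at WL1 than the other phases (0.83). In the 4 comparisons, 1 of 9, 6 of 17, 0 of 8 and 0 of 8 called genes of these 6 lists stayed called in every fit that left out 1 library, in the order WL1 against Pre, WL2 against Pre, WL2 against WL1 and WL1 against the mean of the others. Calls over all genes fell in these fits too. In the same order, the lowest counts were 512 (from 1350), 743 (from 1853), 37 (from 681) and 11 (from 848). The gene kept at WL1 was *Srebf1*, and those kept at WL2 against Pre included *Srebf1*, *Rxra*, *Cyp27a1*, *Sorl1* and *Vldlr*.

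A list of 18 genes held other apolipoproteins and *Apobr*, a receptor for apolipoprotein B, and of the 15 tested 0 were called at WL1 (2 at an unadjusted p under 0.05) and 3 were lower at WL2 against Pre, with a median of -2.50 at WL2. These 3 are apolipoproteins of liver and gut. *Apoa2* measured 0.413, 6.99 and 6.36 CPM at Pre, 8.52, 0.964 and 1.29 CPM at WL1 and 0.109, 0.396 and 0.116 CPM at WL2 (-4.43, adjusted p 0.0459). *Apoc3* (-2.50, adjusted p 0.0155) and *Apoc4*, a further neighbour of *Apoe* and *Apoc1* (-3.33, adjusted p 0.0133), had means of 1.94 and 1.19 CPM at Pre and 0.337 and 0.112 CPM at WL2. *Apoc2* was listed at 0 reads in every library. Summed over 8 hepatocyte genes, 11.5, 49.5 and 86.4 CPM were counted at Pre, 78.1, 3.03 and 9.72 CPM at WL1 and 4.60, 6.06 and 7.87 CPM at WL2, with 1 of the 8 lower at WL2 against Pre and 1 of the 8 listed at 0 across WL2. The libraries high in *Apoa2* were those high in the hepatocyte genes. *Apoc4* was nearly level over the Pre libraries (1.06, 1.21 and 1.29 CPM) and measured 0.651 CPM in WL1 replicate 1. *Apoc3* measured 0.943, 2.20 and 2.68 CPM at Pre and 1.68 CPM in WL1 replicate 1. The part of the hepatocyte genes in the apolipoprotein values was not tested. The receptor gene *Apobr* was the 1 of 15 called at WL2 against WL1, where it fell by 1.23 (adjusted p 0.046), and was higher at WL1 than the other phases by 1.09.

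**Figure D5:**
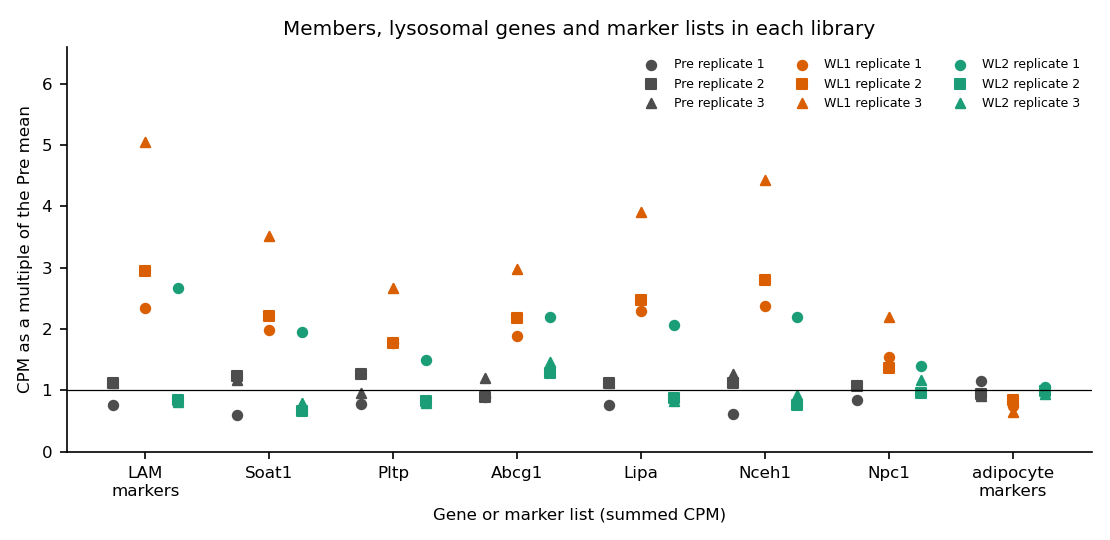
CPM of each library as a multiple of the Pre mean, for the summed lipid-associated macrophage (LAM) markers, 3 members, 3 lysosomal genes and the summed adipocyte markers. Colour gives the phase and shape the replicate, and the line is at 1. WL1 replicate 3 is the highest library in each gene and in the LAM markers (5.05 times the Pre mean) and the lowest in the adipocyte markers (0.647 times), and WL2 replicate 1 lies above the other WL2 libraries in each gene and in the LAM markers (2.67 times).

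In whole tissue, fewer cells of a type and less RNA per cell cannot be told apart, so the levels of marker genes were set beside these results. The 10 markers of lipid-associated macrophages, which gather around dying adipocytes, summed to 1490 to 2208 CPM at Pre, 4616 to 9910 CPM at WL1, and 5240, 1669 and 1603 CPM at WL2, none at 0. Of these 10, 6 were called higher at WL1 against Pre (median 1.63), 0 at WL2 against Pre (1 at an unadjusted p under 0.05), 1 was lower at WL2 against WL1, and 5 were higher at WL1 than the other phases. *Soat1*, *Pltp*, *Abcg1*, *Lipa*, *Nceh1* and *Npc1* were highest in the same library, WL1 replicate 3, and of the WL2 libraries in replicate 1. WL2 replicate 1 thus stands apart from its phase in these genes, and the values without it are given above. The 12 general macrophage markers summed to 1808 to 3396, 3217 to 5970 and 2035 to 3508 CPM, with 0 called against Pre (4 and 1 at an unadjusted p under 0.05) and 0 at WL2 against WL1. In the WL1 peak comparison 1 of the 12 was called higher, with 6 at an unadjusted p under 0.05 and a median of 0.59. The 10 adipocyte markers summed to 28101 to 35731, 20000 to 26207 and 29278 to 32357 CPM, 4 lower at WL1 against Pre, and 1 higher and 2 lower at WL2 against Pre. At WL2 against WL1, 3 of these 10 were higher and 1 lower, and in the WL1 peak comparison 3 were lower. *Apoe* and *Apoc1* differed from Pre at WL2 as much without WL2 replicate 1 (1.07, adjusted p 0.00826, and -1.55, adjusted p 0.00277) as with it, and the lipid-associated macrophage markers of the other 2 WL2 libraries lay within the Pre range. For *Abcg1*, *Pltp* and *Soat1* at WL1, no WL1 library had these markers at the Pre level. The part of these cell types in the members' changes was not tested.

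Of the other marker lists, fibroblast and progenitor markers had 0 of 10 called at WL1 and 1 higher and 1 lower at WL2 against Pre, and endothelial (8) and mesothelial (8) markers had 0 called against Pre. Mesothelial markers summed to 43.4, 439 and 386 CPM in the Pre libraries, 50.5 to 259 CPM at WL1 and 280 to 793 CPM at WL2, and at WL2 against WL1 all 8 had a higher fitted level, with 0 called, 8 at an unadjusted p under 0.05 and a median of 1.94. Pre replicate 1 stands apart from its phase in these markers. It was also the lowest Pre library in general macrophage markers (1808 CPM, beside 3396 and 2845). In lipid-associated macrophage markers it was lowest too (1490 CPM, beside 2192 and 2208), and in adipocyte markers highest (35731 CPM, beside 28892 and 28101). Without Pre replicate 1, 0 of the 9 members were called at WL1 against Pre. Calls over all genes then fell from 1350 of 18510 to 562 of 18441. T and B cell markers summed to 213 CPM in Pre replicate 2 and to at most 19.1 CPM in any other library, so that library stands apart, and 0 of 9 were called. Without it, *Apoe* and *Apoc1* at WL2 and the 3 calls at WL1 against Pre all remained. Of 7 neutrophil genes 3 were tested, and 1, *S100a8*, was called lower at WL1 and at WL2 against Pre. It held 17.6, 11.6 and 16.3 CPM at Pre. That was most of the list's sum of 12.2 to 18.2 CPM at Pre, which was at most 3.88 CPM later. The 2 not called had a higher fitted level at WL2 than at Pre, and *Ly6g* was listed at 0. None of 6 epididymis genes had enough reads to test, and they summed to at most 0.461 CPM. The adipocyte markers were thus present in every library and those of the epididymis close to absent.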

How the data were processed

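RNA of mouse epididymal adipose tissue was measured in 9 libraries, 3 each at Pre, WL1 and WL2, grouped by the sample labels. The authors deposited raw read counts per gene and FPKM (scaled by gene length and library) for 56748 genes. The submitters' processing notes name CASAVA, HISAT, HISAT2, TopHat2, GRCm38 and mm10 without saying which was used for what. No source used here gives the counting program, annotation or strand setting. Gene coordinates in the authors' table mostly differ from GRCm38, so they are printed without a build. The FPKM served only for levels between genes, ratios and 2 alternatives. In the tables, 0 columns matched no sample.

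The 18510 genes that reached 0.5 CPM in 1 or more libraries were tested on the counts in R 4.3.3 with edgeR 4.0.16 (TMM, glmQLFit and glmQLFTest, 1 model over the 9 libraries), with Benjamini-Hochberg adjustment over all genes and a threshold of 0.05. Printed log2 fold changes use the edgeR prior count. The members and gene lists were chosen with earlier results of these data known. Named genes are the 9 members, up to 3 rises and 3 falls past the threshold per list and comparison, and the 3 nearest profiles of each called member. Some genes that this rule names have no values printed. As alternatives, the filter was dropped or asked of 3 libraries, and the fits were repeated with other scaling, DESeq2 1.42.0, the replicate number as a block, only the phases compared, limma 3.58.1 on log2(FPKM + 1) and log2(FPKM + 0.1), and without each library in turn. Libraries of 1 phase differed by more than counting noise (chi-square per degree of freedom 9.88 to 53.8). The scripts were tested on simulated data. Promoters are from RefSeq. No library was left out of the reported values.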

Additional observations from a re-analysis of the deposited data

How the results depend on the processing

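The count of members called at WL2 against Pre (*Apoe* and *Apoc1*) was between 2 and 3 in every alternative and 2 without any 1 library. Over all genes 1853 were called in the main fit and 743 to 1688 without 1 library. At WL1 against Pre the count of 3 became 5 with no filter and 1 with limma on log2(FPKM + 0.1), and ran from 0 (without Pre replicate 1) to 4 (without WL2 replicate 1) over the fits without 1 library. Over all genes 1350 of 18510 were called in the main fit, 1861 of 29550 with no filter and 781 of 18510 with that limma fit. Without Pre replicate 1 the count was 562 of 18441, and without WL2 replicate 1 it was 1500 of 18388. At WL2 against WL1 the count of 0 became 3 with no filter, 1 with upper-quartile factors, library totals alone or only the phases compared, and 2 with DESeq2, and ran from 0 to 2 without 1 library. Calls over all genes were 681 of 18510 in the main fit, 1668 of 29550 with no filter and 1935 of 18510 with DESeq2. They were 704 with upper-quartile factors, 692 with totals alone and 1051 with only the phases compared, and ran from 37 to 1351 without 1 library. In the comparison of WL1 with the mean of both other phases (the peak comparison) the count of 2 became 0 with the replicate block and with limma at either pseudocount, and ran from 0 to 3. Over all genes the count of 848 became 272 with the block, and 570 (pseudocount 1) and 171 (pseudocount 0.1) with limma. It ran from 11 to 1335 without 1 library. The replicate numbers do not pair the libraries (correlations of same-numbered libraries from -0.277 to 0.107). With the block, *Pltp* at WL1 against Pre was 1.04 with an adjusted p of 0.101. Reversed values were all of genes not called: *Abca1* at WL2 against Pre was 0.11 with library totals alone, *Scarb1* at WL2 against WL1 was 0.014 with upper-quartile factors and 0.0022 with totals alone, and *Ch25h* in the peak comparison was -0.010 with the filter on 3 libraries and -0.029 with upper-quartile factors. Without 1 library, signs also changed for *Abca1* at WL1 (-0.043 to 0.15) and WL2 (-0.14 to 0.052) against Pre, for *Pltp* (-0.31 to 0.26), *Soat1* (-0.45 to 0.46) and *Ch25h* (-0.12 to 0.86) at WL2 against Pre, for *Scarb1* (-0.20 to 0.076) and *Ch25h* (-0.38 to 0.56) at WL2 against WL1, and for *Apoe* (-0.19 to 0.0010) and *Ch25h* (-0.15 to 0.32) in the peak comparison. The causes were not tested. Library totals alone shifted the median of all genes to 0.12 at WL1 and 0.16 at WL2 against Pre, from 0.02 and 0.01, and turned the higher calls from 482 of 1350 to 1002 of 1644 and from 620 of 1853 to 1495 of 2331. Upper-quartile factors moved them from 242 of 681 to 340 of 704 at WL2 against WL1 and from 520 of 848 to 460 of 900 in the peak comparison, and totals alone to 698 of 1005 in the latter. *Ch25h* had the fewest reads of the members (8 to 31 per library) and the largest SE.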
